A study of Mus musculus with 36 samples.

Results

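The Zfp genes of the mouse are a large set of genes named for the zinc fingers of their proteins. They were taken as every gene on the arrays whose symbol is Zfp followed by digits only, without Zfp36, which encodes an RNA-binding protein of another kind. This gave 208 of 12394 genes. The probe with the highest mean stood for a gene with several probes. Brain arrays measured 188 of these genes, kidney arrays 153, heart arrays 150 and liver arrays 123, and 105 genes were measured in all 4 tissues. The rule used symbols and not the response to treatment, although the set was chosen with earlier results of these arrays known.

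The study asked how genipin, an iridoid compound from gardenia fruit, alters acute inflammation set off by lipopolysaccharide (LPS), a component of the outer membrane of Gram-negative bacteria. All mice were transgenic females of the FVB strain, 6 to 8 weeks old, imaged for luciferase. The labels do not name the promoter that drives luciferase. Each tissue had 3 groups of 3 arrays. Mock mice received no treatment, LPS mice received 4 mg/kg LPS in the abdominal cavity, and LPS+genipin mice received genipin 10 min after the same LPS. Tissues were collected 4 h later. The study used genipin at 1, 10 and 100 mg/kg. The labels say neither which dose the arrayed mice received nor whether arrays of 1 group came from separate mice. The p-values therefore measure only the spread between these arrays, which may be technical.

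Many Zfp proteins carry runs of C2H2 zinc fingers, small folds held by a zinc ion that read bases of DNA in turn. Those with a KRAB domain recruit the co-repressor TRIM28 and, through it, the histone methyltransferase SETDB1, and they are best known for silencing retroelements and protecting imprints. Other Zfp genes lack KRAB and act in RNA binding, protein turnover, the mitotic spindle or cell lineage choice, so the name describes a protein fold and not one pathway. KRAB members often lie in clusters of duplicated genes and resemble each other. Probe sequences were not used here, so signal from a close paralog was not tested.

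Most of these genes were dim. When the genes of a tissue were split into 5 equal intensity classes, 116 of 188 measured members in brain, 96 of 150 in heart, 107 of 153 in kidney and 86 of 123 in liver lay in the lowest 2 classes. Members were therefore read beside all other genes weighted to the same classes, called genes of like intensity. Intensities below the 5th percentile, 263, were set to it before testing, which understates falls that reach it. It also narrows the spread of groups near it, so their SE and p-values may be too small. The intensities printed are as deposited. Values given as differences are log2 differences between means of 3 arrays per group. The ± SE is that of the limma fit, whose spread is shared by the 9 arrays of a tissue and moderated over genes. "Passed" means a limma p-value adjusted over all genes of the tissue below 0.05. Arrays were normalized within a tissue, so levels were not compared between tissues.

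Cell type markers moved with the groups too, and their part in the results below was not tested. Among 4 measured skeletal muscle markers in brain, the summed intensity was 112506 to 118985 in mock, 3416 to 3680 in LPS and 3749 to 4086 in LPS+genipin, and all 4 were lower with LPS. In heart, 3 fat markers summed to 12592 to 17858 in mock, 85686 to 97584 in LPS and 17222 to 24770 in LPS+genipin, and 2 of the 3 passed as higher with LPS. The 1 measured atrial muscle marker in heart, Myl7, was at 1219 to 1414 in mock, 65485 to 65488 in LPS, near the highest intensity of any array, and 679 to 773 in LPS+genipin. In kidney, 4 of 5 monocyte and macrophage markers were higher with LPS and 1 lower, with sums of 10524 to 10883 in mock, 60318 to 64890 in LPS and 20809 to 22377 in LPS+genipin. The same 5 markers did not move as a set elsewhere. With LPS, 1 was higher and 4 lower in brain, 1 higher and 2 lower in heart, and 2 higher and 2 lower in liver. Their sums rose in these tissues as well, so the sum need not follow the cell type. In liver, both of the 2 measured neutrophil markers were higher with LPS, with sums of 3598 to 3856 in mock, 80909 to 86197 in LPS and 57212 to 62162 in LPS+genipin. In each tissue 3 of 5 endothelial markers were lower with LPS, while 1 of the 5 was higher in brain, kidney and liver and 0 in heart. The defining markers of heart, kidney and liver were high in their own tissue and none passed with LPS. The 6 heart markers summed to 390479 to 392903 in mock and 386516 to 392898 in LPS, where the highest intensity of any probe was 65492. Signals this close to the ceiling can hide a change, so these markers do not show that cell content was steady. In brain, 2 of 5 brain markers were higher with LPS (sums of 195460 to 212459 in mock and 219123 to 221844 in LPS). In bulk tissue, fewer cells of a type and less RNA per cell cannot be told apart.

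The kidney held the largest shift. With LPS, 83 of 153 Zfp genes (54.2%) passed as lower and 24 (15.7%) as higher. Over all 9485 genes 39.2% were lower and 25.3% higher, and among other genes of like intensity 38.3% were lower and 28.0% higher. The median difference was −0.23 for the Zfp genes and −0.09 for all genes. On each of the 3 LPS arrays the median Zfp gene lay below the mock mean, at log2 differences of −0.182, −0.214 and −0.228, whereas the median other gene lay at −0.074, −0.079 and −0.1. By intensity class from the dimmest up, the share lower was 56.7% of 60 Zfp genes, 48.9% of 47, 57.6% of 33 and 53.8% of 13, beside 31.6%, 44.4%, 41.1% and 40.3% of other genes, so the gap was smallest in the class second from the bottom.

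**Figure D1:**
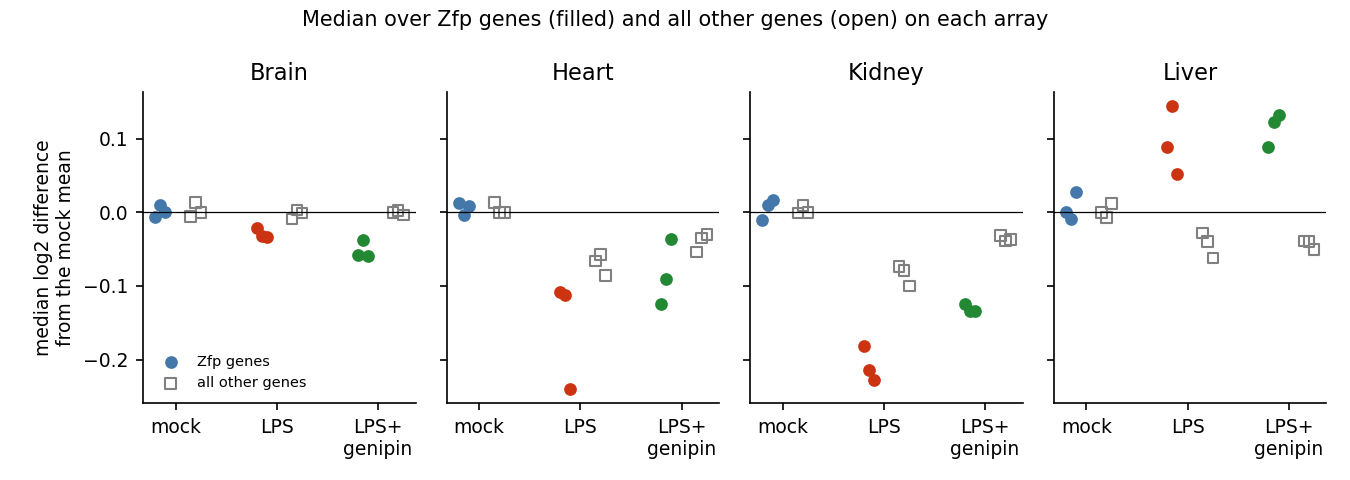
Median log2 difference from the mock mean on each array, over Zfp genes (filled circles) and over all other genes (open squares), by tissue and treatment. In kidney the 3 LPS arrays lie between −0.182 and −0.228 for Zfp genes, and in liver the 3 LPS arrays lie above 0.

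Zfp467, a regulator of the choice between fat and bone cell formation, fell the most in kidney. Its intensities were 1440, 1334 and 1316 in mock, 338, 349 and 336 in LPS, and 772, 866 and 783 in LPS+genipin. The 3 groups did not overlap, and the LPS+genipin arrays lay between the others. The LPS difference was −2.00 ± 0.06 (limma adjusted p = 4e-08), a 4.0-fold fall, and LPS+genipin was 1.24 ± 0.06 above LPS (adjusted p = 2.08e-06) but still 0.76 below mock (difference −0.76 ± 0.06). In brain, the fall of Zfp467 with LPS was smaller (−0.43 ± 0.08), and the genipin difference, 0.16 ± 0.08, did not pass.

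Zfp101 followed the same course, from 874, 829 and 933 in mock to 297, 256 and 251 in LPS and 569, 580 and 486 in LPS+genipin (LPS −1.68 ± 0.08, genipin 0.99 ± 0.08). Zfp750, whose human counterpart drives differentiation of the epidermis, went from 621, 745 and 715 to 250, 269 and 254 and then to 440, 458 and 399. Zfp979 went from 904, 884 and 837 to 406, 427 and 400 and then to 627, 719 and 671. In each of these 3 genes the LPS+genipin arrays stood above all LPS arrays and below all mock arrays. The LPS arrays of Zfp101 and Zfp750 lay near the floor, so their fitted spread may be too small. Zfp346, which binds double-stranded RNA, went from 1851, 2030 and 1773 to 1201, 1152 and 1099 and then to 2012, 1859 and 1976. There the LPS+genipin arrays overlapped mock, with a difference of 0.05 ± 0.06 that did not pass.

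Other large kidney falls with LPS were those of Zfp397 (−1.20 ± 0.09), Zfp329 (−1.18 ± 0.11) and Zfp661 (−1.14 ± 0.11). Zfp329 hardly moved back: its genipin difference was 0.29 ± 0.11, which did not pass. Of the genes that rose, Zfp52 went from 611, 545 and 666 in mock to 1884, 1707 and 1487 in LPS and stayed at 1519, 1321 and 1583 in LPS+genipin, a difference of −0.20 ± 0.11 from LPS that did not pass. Zfp773 rose by 0.79 ± 0.12 and fell by 0.71 with genipin (difference −0.71 ± 0.12). Zfp1 rose by 0.78 ± 0.05 and returned in part (−0.46 ± 0.05).

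**Figure D2:**
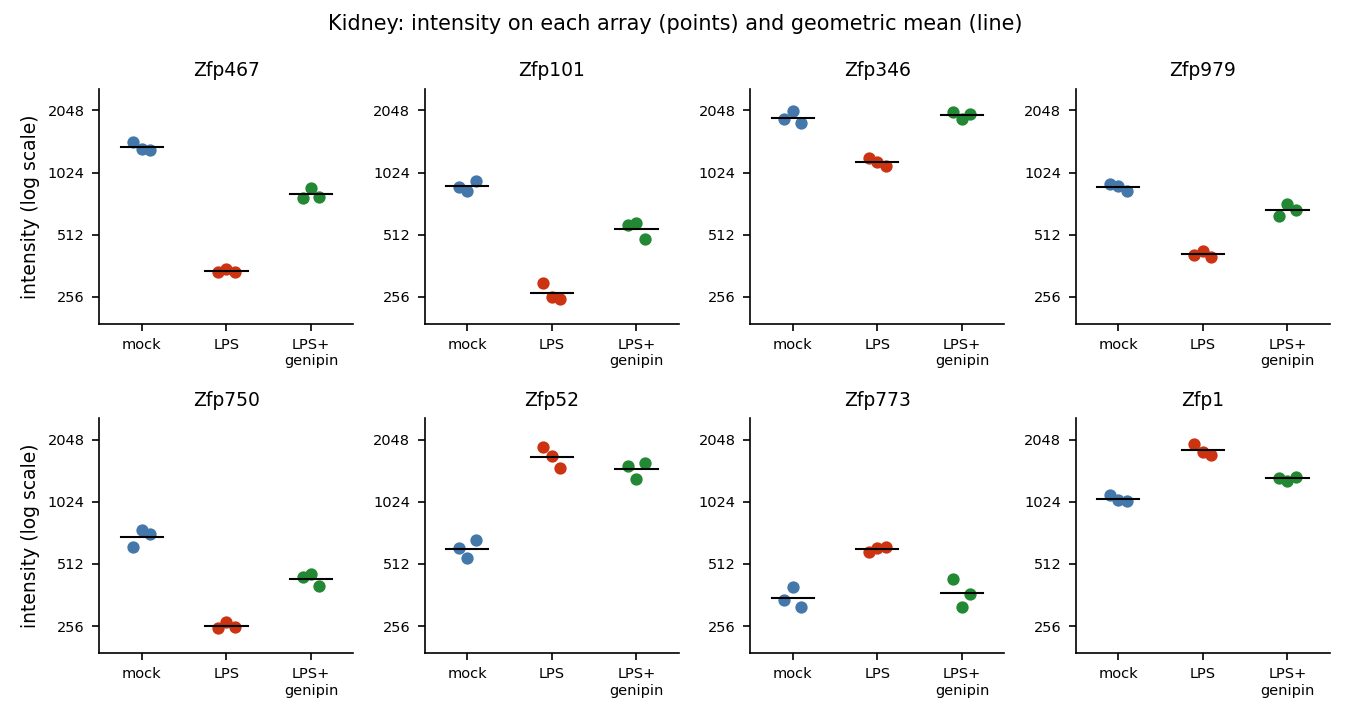
Intensity of 8 Zfp genes on each kidney array (points, log scale) with the geometric mean of each group (line). Zfp467, Zfp101, Zfp979 and Zfp750 are lowest in LPS and intermediate in LPS+genipin, Zfp346 returns to the mock range, and Zfp52 stays high in LPS+genipin.

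Against LPS alone, the kidney with genipin had 63 Zfp genes higher (41.2%) and 24 lower (15.7%), beside 32.3% higher and 22.6% lower over all genes and 33.0% and 25.0% among genes of like intensity. The genes that fell most with genipin were Zfp287 (−1.26 ± 0.19), Zfp414 (−1.04 ± 0.16) and Zfp810 (−0.91 ± 0.08). Each of these had risen with LPS. Against mock, 48 Zfp genes (31.4%) were still lower with LPS+genipin and 14 (9.15%) higher, where all genes had 24.4% lower and 20.2% higher.

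A gene was said to have fallen and returned when it passed as lower in LPS against mock and as higher in LPS+genipin against LPS. Both comparisons use the same LPS arrays, so a chance low reading there favours both calls, and the count is a description. In kidney 55 of 153 Zfp genes (35.9%) did so, beside 24.7% of all genes and 25.6% of other genes of like intensity. Among the genes that fell, 66.3% of the Zfp genes and 62.8% of the other genes came back. Of the 55, 25 were still lower than mock, 2, Zfp207 and Zfp266, were higher than mock and 28 did not pass against mock.

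By role, 7 of 8 measured kidney genes with roles in RNA handling, protein turnover or the spindle fell with LPS and 6 of the 8 rose with genipin. Over all kidney genes 39.2% fell and 32.3% rose in these comparisons, and so short a list was not tested against them. Zfp638, a nuclear protein that binds RNA and DNA, went from 3835, 3993 and 3502 in mock to 2035, 2119 and 2083 in LPS and 3212, 3196 and 3162 in LPS+genipin (−0.86 ± 0.05, then 0.62 ± 0.05). Zfp207, which helps chromosomes attach to the spindle, fell by 0.28 (−0.28 ± 0.03) and rose by 0.41 ± 0.03. Zfp330, a nucleolar protein, was the one that did not pass with LPS (−0.09 ± 0.05). Among 3 genes for silencing or stem cell state, Zfp445, a KRAB protein that protects imprints, fell (−0.73 ± 0.07), while Zfp281 (0.55 ± 0.09), a regulator of pluripotency, and Zfp809 (0.34 ± 0.05), which silences murine leukaemia provirus, rose. Of 4 promoter-binding regulators, Zfp148 (−0.74 ± 0.08) and Zfp263 (−0.23 ± 0.07) fell and Zfp384 rose (0.70 ± 0.15).

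The partners of KRAB proteins were measured as well. Of 8 genes of the KRAB co-repressor machinery in kidney, 5 fell with LPS, 1 rose, and 6 were higher with genipin. Over all kidney genes the shares were 39.2%, 25.3% and 32.3%, and the short list was not tested against them. Trim28 differed by −0.39 ± 0.05 with LPS and by 0.65 ± 0.05 with genipin, Setdb1 by −0.56 ± 0.07 and 0.57 ± 0.07, and Hdac2, a histone deacetylase, by −0.45 ± 0.06 and 0.43 ± 0.06. In liver Trim28 (−0.58 ± 0.05, then 0.47 ± 0.05) and Setdb1 (−0.38 ± 0.08, then 0.36 ± 0.08) did the same. In brain Trim28 rose with LPS (0.23 ± 0.07), and in heart its difference was −0.02 ± 0.07 and did not pass. Of the measured machinery genes, 3 of 7 fell with LPS in liver, 2 of 8 in brain and 0 of 8 in heart. The shares of all genes were 37.2%, 17.6% and 29.1%. Other zinc finger families did not share one direction in kidney. Among 24 Zbtb genes, which join zinc fingers to a BTB dimerization domain, 12 were lower and 5 higher, and among 13 Klf genes, the Krüppel-like factors, 2 were lower and 9 higher.

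Many Zfp genes lie beside each other in the genome. By gene order in RefSeq (GRCm38.p6), 102 of the 208 Zfp genes were next to another Zfp gene, while 231 of 12045 other genes placed there were next to a Zfp gene. In kidney, 47 of 75 such neighbours (62.7%) and 36 of 78 others (46.2%) were lower with LPS, with medians of −0.39 and −0.12. In heart the shares were 34.3% and 28.9%, in liver 23.6% and 22.1%, and in brain 18.5% and 16.7%. Over all genes 39.2% were lower in kidney, 29.1% in heart, 37.2% in liver and 17.6% in brain. The difference between these subsets was not tested.

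Promoters were then compared by letters, since 83 Zfp genes had fallen in kidney. RefSeq windows of 300 bases, 250 before to 50 after a start site, were held for 171 of the 208 genes, in 210 windows. The element bound by ZFP143 and THAP11, both regulators of broadly expressed genes, was searched as TACANTTCC on both strands. These letters were chosen after the windows had been read. They were found in 29 of the 210 windows (13.8%), from 28 genes, and in 2.33% of all 12784 windows of genes on the arrays. CCGGAAGT, an ETS site, was in 11.9% of the Zfp windows and 6.49% of all. AAGATGGC, a YY1 site, was in 7.14% and 3.82%, and GCGCNTGCG, part of an NRF1 site, in 14.3% and 11.2%. Sites for factors of the inflammatory response were near the overall share, with 5.24% and 4.38% for the NF-kB letters GGGANTTNC and 4.76% and 5.62% for the AP-1 letters TGANTCA. The SP1 letters GGGGCGGGG were in 13.8% and 19.6%, the CRE letters TGACGTCA in 3.81% and 2.68%, and TATAAA in 8.1% and 8.66%. All were searched on both strands, and the element and the ETS site share letters at their TTCC end. A match is a description and not a bound site.

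Of the 28 genes with the element, 16 were measured in kidney. There 14 fell with LPS, Zfp1 rose and Zfp28 did not pass, and 10 of the 14 rose again with genipin. Over all kidney genes 39.2% fell and 24.7% fell and returned. Genes outside the Zfp set that hold the letters were not examined. The median difference was −0.62, compared with −0.18 for the 110 kidney members whose windows lack the letters, of which 57 fell. In the other tissues the medians of the groups lay closer together. In heart 8 of 18 fell (median −0.36, against −0.14 for the rest), in brain 5 of 26 (−0.08 against 0.0) and in liver 4 of 13 (0.0 against 0.15). The shares of all genes that fell were 29.1%, 17.6% and 37.2%. The difference was not tested, since the letters were picked after the data were known. Several of these genes, such as Zfp420, Zfp790 and Zfp146, lie on the same chromosome (chr7). Genes with the element may thus be related copies and not separate observations, which was not tested. The 60 bases around the element, upstream of the start site, are shown for the 8 genes that fell in kidney and whose whole stretch lies in the upstream part of the window. The sequences are aligned on the element, which is in capitals, and are written 5′ to 3′ on the strand on which it reads.
Zfp661: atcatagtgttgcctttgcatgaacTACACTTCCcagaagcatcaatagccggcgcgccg
Zfp420: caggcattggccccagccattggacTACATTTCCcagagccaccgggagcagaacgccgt
Zfp93: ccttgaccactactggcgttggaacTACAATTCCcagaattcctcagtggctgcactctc
Zfp790: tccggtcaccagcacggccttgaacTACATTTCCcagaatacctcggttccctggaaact
Zfp317: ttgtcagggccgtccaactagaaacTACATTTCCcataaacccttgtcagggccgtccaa
Zfp692: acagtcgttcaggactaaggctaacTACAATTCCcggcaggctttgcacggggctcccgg
Zfp146: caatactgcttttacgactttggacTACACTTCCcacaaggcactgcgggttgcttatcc
Zfp94: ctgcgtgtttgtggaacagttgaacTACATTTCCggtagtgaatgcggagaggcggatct

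The windows are from RefSeq on GRCm38.p6. They lie at chr2:127584723-127584782 (plus strand) for Zfp661, chr7:29859897-29859956 (plus) for Zfp420, chr7:24270321-24270380 (minus) for Zfp93, chr7:29815943-29816002 (minus) for Zfp790, chr9:19621844-19621903 (plus) for Zfp317, chr11:58306998-58307057 (plus) for Zfp692, chr7:30169837-30169896 (plus) for Zfp146 and chr7:24316790-24316849 (plus) for Zfp94. The middle of the stretch lies 41 to 217 bases before the start site in these 8 genes. In Zfp420, Zfp317 and Zfp692 it reads with the gene and in the other 5 against it. The kidney differences with LPS, in the order shown, were −1.14, −0.96, −0.92, −0.75, −0.72, −0.67, −0.57 and −0.41. Genipin raised Zfp661 (0.53 ± 0.11), Zfp93 (0.63 ± 0.09), Zfp790 (0.38 ± 0.08), Zfp317, Zfp692 and Zfp146, while Zfp420 (0.14 ± 0.13) and Zfp94 (0.06 ± 0.13) did not pass.

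**Figure D3:**
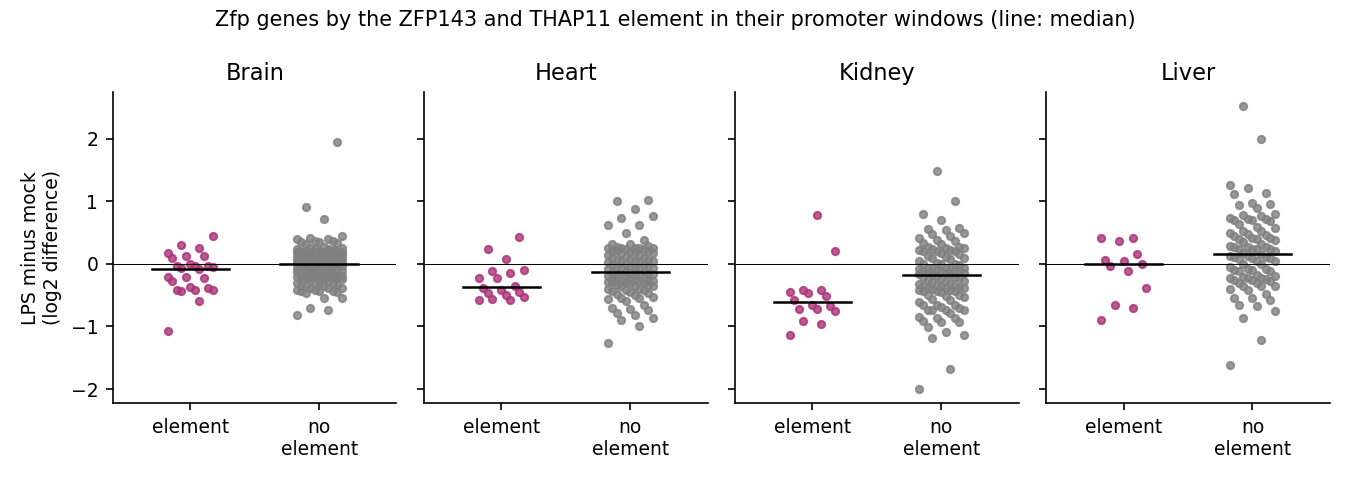
Log2 difference between LPS and mock for each Zfp gene with a promoter window, split by whether a window holds the ZFP143 and THAP11 element; the line is the median. In kidney the 16 genes with the element have a median of −0.62 and the 110 without it a median of −0.18.

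In liver the balance ran the other way. With LPS, 45 of 123 Zfp genes (36.6%) passed as higher and 28 (22.8%) as lower. Over all 8479 genes 29.3% were higher and 37.2% lower, and among genes of like intensity 28.6% and 35.1%. The median difference was 0.10 for the Zfp genes and −0.03 for all genes. The medians on the 3 LPS arrays were 0.089, 0.144 and 0.052 above the mock mean. By intensity class from the dimmest up, the share of Zfp genes that were higher was 20% of 50, 41.7% of 36, 47.8% of 23 and 61.5% of 13, beside 24.7%, 31.2%, 30.3% and 33.3% of other genes, and the 1 gene in the brightest class was higher.

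Zfp810 rose the most in liver. It measured 355, 404 and 400 in mock, 2493, 2464 and 1747 in LPS, and 1161, 1113 and 1147 in LPS+genipin. No group overlapped another. The LPS difference was 2.52 ± 0.13 (limma adjusted p = 1.32e-06), a 5.72-fold rise, and genipin lowered it by a log2 difference of −0.95 ± 0.13. Zfp287 rose in another way, from 608, 646 and 615 in mock to 1901, 2481 and 3201 in LPS and on to 7664, 6784 and 3976 in LPS+genipin. Its LPS difference was 1.99 ± 0.26, and the further rise with genipin was 1.26 ± 0.26 (adjusted p = 0.00478), which put it 9.5-fold above mock. Zfp330 went from 1464, 1509 and 1318 to 3537, 3569 and 3194 and then to 4077, 3954 and 3808 (1.26 ± 0.07 with LPS). Zfp523 rose by 1.22 ± 0.31, with a wide spread among the LPS arrays (1140, 1363 and 2122), and fell again with genipin (−1.24 ± 0.31).

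The liver genes that fell included some of the sharpest changes. Zfp750 went from 1038, 1064 and 969 in mock to 252, 267 and 260 in LPS and 523, 553 and 502 in LPS+genipin (−1.95 ± 0.05, then 0.99 ± 0.05, limma adjusted p = 4.07e-08 and 5.27e-06). Zfp367 went from 822, 772 and 871 to 255, 275 and 262 and then to 428, 514 and 566, and Zfp524 from 1032, 988 and 1071 to 361, 421 and 379 and then to 632, 649 and 626. In all 3 genes the LPS+genipin arrays lay between mock and LPS without overlap. The LPS arrays of Zfp750 and Zfp367 lay near the floor, so their SE and p-values may be too small. Zfp637 (−1.21 ± 0.16), Zfp420 (−0.89 ± 0.15) and Zfp768 (−0.87 ± 0.12) also fell, and their genipin differences of 0.35 ± 0.16, 0.28 ± 0.15 and 0.12 ± 0.12 did not pass.

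With genipin, 45 liver Zfp genes (36.6%) were higher than in LPS and 25 (20.3%) lower, beside 29.6% and 24.4% of all genes. The genes that rose were often not those that LPS had lowered. Of the 45 Zfp genes that rose, 14 had passed as lower with LPS. Over all liver genes 2509 rose, and 1530 of these had passed as lower with LPS. Zfp445 (0.92 ± 0.11) and Zfp84 (0.89 ± 0.15) rose although their LPS differences, −0.18 ± 0.11 and −0.03 ± 0.15, had not passed. Zfp715 (−1.78 ± 0.34) and Zfp418 (−1.26 ± 0.23) fell the most. Of 9 genes of the RNA, protein turnover and spindle list, 7 rose with genipin and 7 stood above mock, beside 29.6% and 28.5% of all genes. Zfp451, a SUMO ligase, was 801, 772 and 817 in mock, 914, 1029 and 762 in LPS and 1400, 1427 and 1360 in LPS+genipin. Only the LPS+genipin arrays stood apart, 0.81 ± 0.10 above mock. Zfp598, a ubiquitin ligase that marks collided ribosomes, rose with LPS (0.71 ± 0.10) and fell with genipin (−0.39 ± 0.10).

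In liver 14 of 123 Zfp genes (11.4%) fell and returned, beside 18.0% of all genes and 17.7% of genes of like intensity. Against mock, 49 (39.8%) were higher and 25 (20.3%) lower with LPS+genipin, where all genes had 28.5% and 32.4%. Without mock array 3 the count of lower genes against mock was 16. The Zbtb genes did not follow the Zfp genes in liver: 12 of 20 fell with LPS and 2 rose, beside 37.2% and 29.3% of all genes.

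**Figure D4:**
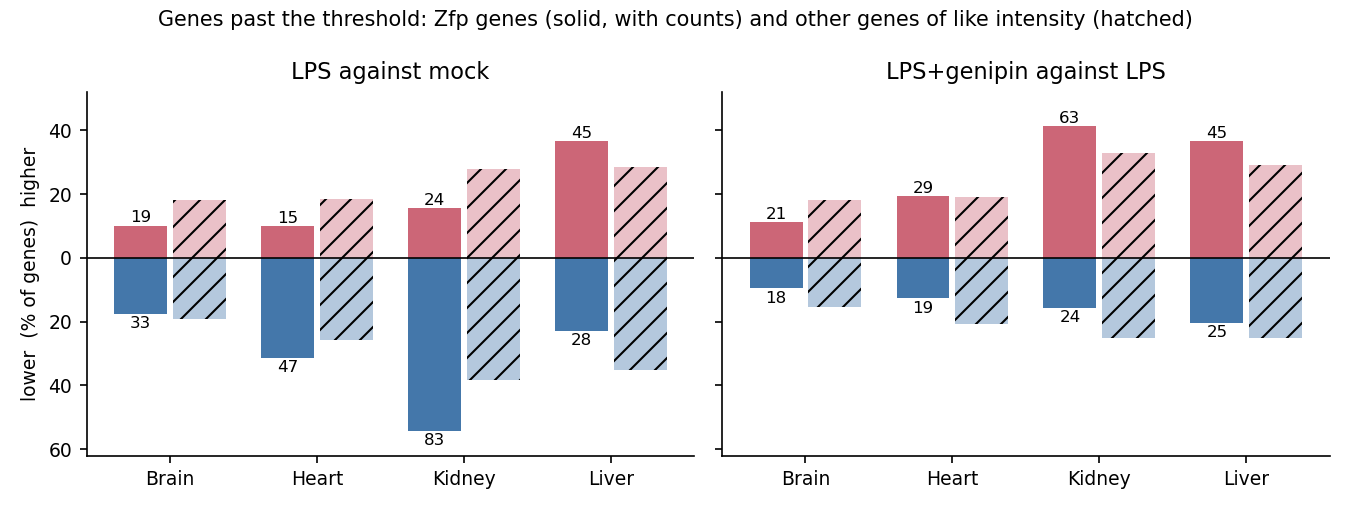
Percentage of Zfp genes (solid bars, with counts) and of other genes weighted to the same intensity classes (hatched bars) that passed as higher (above 0) or lower (below 0), for LPS against mock and LPS+genipin against LPS. In kidney 83 Zfp genes are lower with LPS, and in liver 45 are higher.

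Heart lay between. With LPS, 47 of 150 Zfp genes (31.3%) were lower and 15 (10.0%) higher, beside 29.1% and 18.3% of all 9536 genes and 25.8% and 18.5% of genes of like intensity. The median was −0.15 for the Zfp genes and −0.06 for all genes. The 3 LPS arrays had medians of −0.108, −0.113 and −0.24, so LPS array 3 was the lowest. The count of higher genes was 9 without mock array 2 and 23 with arrays weighted by their quality.

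Zfp62 moved the most in heart. It measured 1358, 1369 and 1313 in mock, 576, 629 and 486 in LPS, and 1208, 1234 and 1331 in LPS+genipin. The LPS arrays stood below all others, and the LPS+genipin arrays overlapped mock. The differences were −1.26 ± 0.09 with LPS and 1.16 ± 0.09 with genipin (limma adjusted p = 1.73e-05 and 4.18e-05). Zfp617 went from 1282, 1281 and 1233 to 804, 804 and 603 and then to 1346, 1497 and 1399, and Zfp768 from 3584, 4159 and 3873 to 2127, 2173 and 1944 and then to 3300, 3330 and 3814. Zfp27 (−0.86 ± 0.19, then 0.66 ± 0.19) and Zfp146 (−0.58 ± 0.10, then 0.70 ± 0.10) fell and returned as well. Zfp536, a repressor of neuronal differentiation, and Zfp319 fell with LPS (−1.0 ± 0.10 and −0.81 ± 0.13).

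The heart genes that rose were Zfp52, Zfp281, Zfp593 and Zfp800 in front. Zfp593, a nucleolar factor of ribosome assembly, was 425, 426 and 386 in mock, 859, 814 and 751 in LPS and 437, 506 and 494 in LPS+genipin. Its LPS arrays stood above all others, with differences of 0.97 ± 0.08 and then −0.76 ± 0.08. Zfp281 (1.00 ± 0.14, then −0.56 ± 0.14), Zfp800 (0.88 ± 0.10, then −0.53 ± 0.10) and Zfp52 (1.02 ± 0.16, then −0.49 ± 0.16) rose with LPS and fell with genipin. Zfp276 (−0.69 ± 0.17) and Zfp418 (−0.59 ± 0.07) were lower with genipin too.

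Against LPS, 29 heart genes (19.3%) were higher with genipin and 19 (12.7%) lower, beside 22.1% and 19.9% of all genes. Among genes of like intensity the shares were 19.1% and 20.7%. Without LPS+genipin array 2 the higher count was 18, and with array weights the lower count was 29. Those that fell and returned numbered 20 of 150 (13.3%), below the 17.9% of all genes and near the 15% of genes of like intensity. Among heart genes that fell with LPS, 42.6% of the Zfp genes and 62.0% of the other genes came back. Against mock, 24 (16%) were lower and 5 (3.33%) higher, beside 12.3% and 7.61% of all genes. With array weights the higher count was 12. The lower count was 13 without mock array 2, LPS+genipin array 1 or LPS+genipin array 2 and 15 without mock array 3. The higher count was 0 without mock array 1, mock array 2 or LPS+genipin array 2 (limma, with 9, 10 and 7 genes at an unadjusted p below 0.05). It was 1 without LPS+genipin array 1 or 3, 2 without mock array 3 or LPS array 2, and 3 without LPS array 1.

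Brain moved the least. With LPS, 33 of 188 Zfp genes (17.6%) were lower and 19 (10.1%) higher, beside 17.6% and 16.4% of all 10148 genes, and 19.1% and 18.0% of genes of like intensity. The median was −0.03. The counts fell to 20 and 11 without mock array 3. Zfp933 fell the most, from 1672, 1640 and 1768 in mock to 919, 811 and 708 in LPS, and stood at 1343, 1214 and 1151 in LPS+genipin. No groups overlapped, and the differences were −1.07 ± 0.10 and 0.61 ± 0.10. Zfp236 fell too (−1.01 ± 0.12). Zfp758 went from 1192, 1203 and 1281 to 717, 675 and 706 and then to 1310, 1171 and 998. The LPS+genipin arrays stood above all LPS arrays (0.72 ± 0.09) and lay on both sides of the mock arrays. Zfp397 (−0.89 ± 0.10, then 0.65 ± 0.10), Zfp286 (−0.70 ± 0.12, then 0.61 ± 0.12), Zfp710 (−0.71 ± 0.10, then 0.52 ± 0.10) and Zfp711 (−0.56 ± 0.13, then 0.58 ± 0.13) also fell and returned, though the LPS+genipin arrays of Zfp397 and Zfp710 stayed below all mock arrays, and Zfp563 fell (−0.74 ± 0.21). The call of Zfp711 was lost for LPS without mock array 1 or 2 and for genipin without LPS+genipin array 1.

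Zfp287 rose in brain, from 826, 706 and 715 in mock to 2156, 2559 and 4391 in LPS, with LPS array 3 the highest, and stood at 1910, 1992 and 1934 in LPS+genipin. The LPS difference was 1.95 ± 0.23, and the genipin difference of −0.57 ± 0.23 did not pass. Zfp628 (0.71 ± 0.08, then −0.54 ± 0.08), Zfp647 (0.60 ± 0.08, then −0.27 ± 0.08) and Zfp521 rose and came down again. Zfp521, a regulator of blood, neural and fat lineages, measured 4125, 4690 and 4652 in mock, 6757, 6693 and 5846 in LPS and 3746, 3695 and 3345 in LPS+genipin, where it was below mock (−0.32 ± 0.08).

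Against LPS, 21 brain genes (11.2%) were higher with genipin and 18 (9.57%) lower, beside 16.4% and 13.8% of all genes. The count of 21 became 13 without LPS+genipin array 1. The count of 18 became 30 without LPS array 1, 11 without LPS array 3 and 9 without LPS+genipin array 1. Those that fell and returned numbered 15 (7.98%), beside 9.85% of all genes and 11.1% of genes of like intensity, and 9 without LPS+genipin array 1. Among brain genes that fell with LPS, 45.5% of the Zfp genes and 56.3% of the other genes came back. Against mock, 8 (4.26%) were lower and 3 (1.6%) higher, beside 5.59% and 8.92% of all genes. With arrays weighted by their quality these counts were 42 and 19, and with the replicate number as a block the count lower was 13. Without mock array 2 or 3 the 8 became 4 or 2, and without LPS array 2 or 3 they became 13 or 18, while the 3 became 7 in both of the last cases.

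The tissues were then set against each other. The LPS difference varied among the 4 tissues in 75 of 105 Zfp genes measured in all of them (71.4%; limma F test), beside 77.1% of all 6705 such genes. The genipin difference varied in 71 (67.6%), beside 74.5%. Both shares lay below those of all genes. These fits treat arrays of different tissues as independent, but LPS arrays of the same number deviated together across tissues (median correlation 0.4, with 15 of 18 pairs over 0.1). With treatment and number as a random block the counts were 79 and 73, and the tests between pairs of tissues were not run with that block. Between kidney and liver, the LPS difference was lower in kidney in 51 of 115 Zfp genes (44.3%) and higher in 11 (9.57%), where 24.1% and 27.0% of 7635 genes were. Between brain and kidney it was higher in brain in 57 of 142 (40.1%) and lower in 17 (12%), beside 29.9% and 19.3% of 8287 genes.

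Some genes moved 1 way wherever they were measured. Of 138 Zfp genes measured in at least 3 tissues, 8 were lower with LPS in every one of their tissues (5.8%, beside 3.76% of all 8521 such genes), namely Zfp41, Zfp106, Zfp251, Zfp317, Zfp362, Zfp524, Zfp661 and Zfp760, and 2 were higher (1.45%, beside 4.01%), Zfp1 and Zfp287. Zfp41 and Zfp251 were measured in brain, heart and kidney, and the rest in all 4. The differences of Zfp661 were −0.41 ± 0.11 (brain), −0.53 ± 0.07 (heart), −1.14 ± 0.11 (kidney) and −0.66 ± 0.17 (liver). Those of Zfp524 were −0.42 ± 0.12, −0.51 ± 0.13, −0.59 ± 0.06 and −1.41 ± 0.06 in the same order. Zfp106, an RNA-binding protein needed by motor neurons, differed by −0.45 ± 0.08, −0.40 ± 0.09, −0.21 ± 0.06 and −0.26 ± 0.08. Where all arrays of a group lay at the floor the fall is a bound: Zfp41 was at least 1.26-fold lower in heart, Zfp251 at least 1.71-fold lower in kidney and Zfp362 at least 1.48-fold lower in liver. Zfp1 rose by 0.45 ± 0.11, 0.43 ± 0.07, 0.78 ± 0.05 and 0.41 ± 0.08.

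These 10 genes gave 38 calls. With each array of the tissue left out in turn, 26 calls held throughout and 12 were lost at least once, 6 of them in brain, 3 in heart, 2 in liver and 1 in kidney. None turned direction. Zfp287 in heart rested on an adjusted p of 0.0496 and was lost without any of 7 arrays. Its values there were 7641, 7879 and 11280 in mock and 11713, 12278 and 21492 in LPS, with mock array 3 and LPS array 3 above the others. The fall of Zfp317 in liver was lost without any of 7 arrays as well.

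Of the 208 Zfp genes, 0 fell and returned in all 4 tissues, 8 did so in 3 (3.85%), 16 in 2 (7.69%) and 48 in 1 (23.1%). Over all genes the shares were 0.299%, 2.89%, 9.14% and 24.9%, so those of the Zfp genes were near the background. The 8 were Zfp62, Zfp606, Zfp617 and Zfp664 in heart, kidney and liver, and Zfp106, Zfp148, Zfp362 and Zfp758 in brain, kidney and liver. Kidney and liver were thus in every case. Zfp148, a regulator that binds GC-rich promoters, was 1278, 1231 and 1251 in mock brain, 1085, 776 and 995 in LPS and 1469, 1346 and 1247 in LPS+genipin. In kidney it was 493, 569 and 583, then 349, 307 and 326, then 483, 427 and 492. In brain, Zfp606 and Zfp664 rose with LPS (0.37 ± 0.07 and 0.27 ± 0.08), opposite to the other 3 tissues.

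Of 163 Zfp genes measured in at least 2 tissues, 20 were called in opposite directions in different tissues (12.3%), beside 17.5% of all 10028 such genes. The 5 with the largest gap were chosen for that gap, so their differences are given as a description. Zfp810 rose in liver (2.52 ± 0.13) and fell in heart (−0.53 ± 0.09), and it also rose in kidney (0.42 ± 0.08). Zfp521 and Zfp536 rose in brain (0.52 ± 0.08 and 0.42 ± 0.07) and fell in heart (−0.98 ± 0.07 and −1.0 ± 0.10). Zfp521 in heart was 2782, 2793 and 2431 in mock, 1317, 1354 and 1376 in LPS and 1773, 1856 and 1935 in LPS+genipin. Zfp719 rose in liver (0.69 ± 0.10) and fell in kidney (−0.69 ± 0.08) and brain (−0.54 ± 0.09). Zfp790, shown above among the promoters, rose in liver (0.42 ± 0.15) and fell in kidney (−0.75 ± 0.08). The liver call of Zfp790 had an adjusted p of 0.0411 and was lost without any mock array, without LPS array 1 or without any LPS+genipin array.

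**Figure D5:**
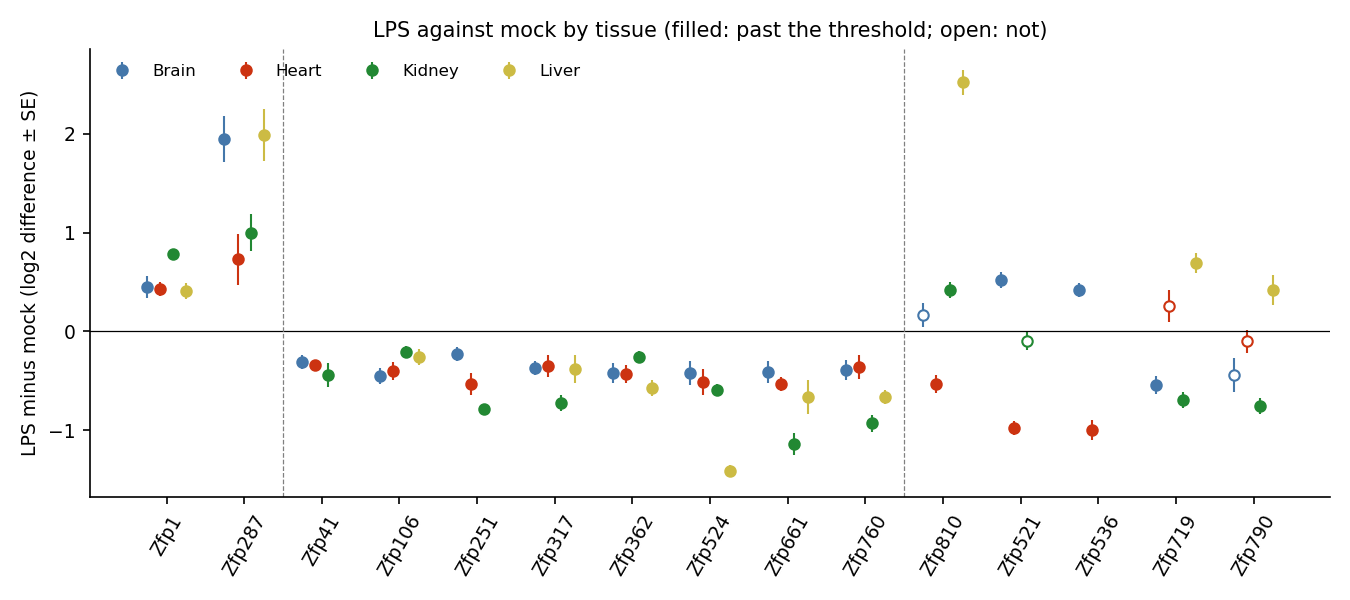
Log2 difference between LPS and mock (± SE of the limma fit, 3 arrays per group) in each tissue for the Zfp genes that moved 1 way wherever measured (left of the right dashed line, the 2 that rose first) and for the 5 with the largest opposite calls (right). Filled points passed the threshold; Zfp810 in liver is the highest point, at 2.52.

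Between kidney and liver, 24 of the 115 Zfp genes measured in both fell with LPS in both (20.9%), beside 22.9% of all 7635 such genes, and 16 rose in both (13.9%), beside 15.4%. Those that fell in kidney and rose in liver numbered 10 (8.7%), beside 4.57% of all genes, and 0 rose in kidney and fell in liver, beside 3.01%. Over the 208 genes, 103 fell with LPS in at least 1 tissue (49.5%), 68 rose in at least 1 (32.7%) and 57 passed in none (27.4%). Over all 12394 genes these shares were 54.2%, 40.9% and 19.1%.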

How the data were processed

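The values are intensities of 36 arrays of Cy5-labelled RNA, 3 per group, from 1 table of 18183 probes deposited by the authors, already normalized. The submitters' processing notes name limma without a version. The sources used here do not give the scanner, background correction or probe filter. Intensities were floored at 263 (5th percentile) and put on the log2 scale. Platform symbols were held for 14817 probes, of which 2318 were updated by synonym through RefSeq. The probe with the highest mean stood for a gene, which left out members measured only by another probe (brain 2, heart 2, kidney 1, liver 3). Groups came from the labels. In each tissue group means were fitted by limma 3.58.1 (R 4.3.3), two-sided, adjusted by Benjamini-Hochberg over all genes of the tissue, threshold 0.05. The fit was tested on simulated data. The number of arrays limits the precision. Within a tissue, not every pair of same-numbered arrays deviated together (median correlations −0.07 to 0.14, over 0.1 in 5 of 9 pairs in brain and 1 of 9 in each other tissue), so the numbers were not taken as pairs. Proteins were not used here. Members, lists and naming rules were chosen with earlier results of these data known. Named in each tissue were the 6 largest falls and 4 largest rises with LPS, the 5 largest rises and 3 largest falls with genipin and the 5 largest returns, all past the threshold, then the genes that passed 1 way everywhere, the 5 largest opposite calls and the role lists. Genes with the promoter element, Zfp606, Zfp664, Zfp266 and Zfp467 in brain were named after their values were seen. Alternatives covered the floor, filter, probe choice, symbols, centring, variance model, replicate block and each array left out. Figures were drawn with matplotlib 3.10.9 in Python 3.11.15.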

Additional observations from a re-analysis of the deposited data

Results flagged for a closer look

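The response to LPS of 5 Zfp genes ran in opposite directions in 2 tissues, and a limma test of the difference between those tissues, fitted over all genes measured in both, passed for each. The genes had been picked for their opposite calls on the same arrays, so these tests describe the size of the gap. The differences were 3.04 ± 0.17 for Zfp810 (liver minus heart, adjusted p = 6.98e-10), 1.5 ± 0.12 for Zfp521 (brain minus heart, adjusted p = 2.57e-08), 1.42 ± 0.13 for Zfp536 (brain minus heart, adjusted p = 3.32e-07), 1.38 ± 0.13 for Zfp719 (liver minus kidney, adjusted p = 2.97e-07) and 1.17 ± 0.18 for Zfp790 (liver minus kidney, adjusted p = 4.73e-05). Groups of 3 arrays were too small to test whether a single array stands apart, so the single arrays named above are a description.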

How the results depend on the processing

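The 28 counts of Zfp genes stayed within 1.5 times of those above without a floor, with re-centred arrays, with a robust intensity trend, with platform symbols, with a trailing letter allowed, and with the brightest probe of each tissue, the last chosen after seeing the data. Counts below follow the order LPS lower and higher, genipin lower and higher against LPS, and lower and higher against mock. They cover Zfp genes only. Shares of all genes were not counted for them, so whether the gaps to all genes held was not tested. With array weights, brain had 42 lower and 19 higher against mock, and heart had 23 higher with LPS, 29 lower with genipin and 12 higher against mock. With the mean of all probes brain had 5 higher against mock, and with the floor at the 10th percentile heart had 2. With the replicate block brain had 13 lower against mock, and heart had 15 lower and 0 higher (limma, 11 at an unadjusted p below 0.05); no other count moved by over 1.5 times. Leaving out the dimmest genes of each tissue (lowest 25% by mean), which tests fewer members, gave 9 lower with genipin and 1 higher against mock in brain; 30, 9, 11, 19, 12 and 2 in heart with 12 fallen and returned; 42 and 15 with LPS, 31 higher with genipin, 25 lower against mock and 26 fallen and returned in kidney; and 12 lower with LPS, 24 higher with genipin, 11 lower against mock and 7 fallen and returned in liver. Asking also for a change of at least 1.5-fold, a stricter rule by construction, gave 8, 3, 1, 4, 1 and 1 in brain, 12, 7, 3, 6, 3 and 0 in heart, 37, 5, 11, 14, 8 and 1 in kidney and 11, 21, 12, 18, 11 and 28 in liver, with 4, 4, 12 and 3 fallen and returned. With each array left out in turn, brain ranged over 20 to 39, 11 to 27, 9 to 30, 13 to 26, 2 to 18 and 2 to 7, with 9 to 21 fallen and returned. Heart ranged over 40 to 47, 9 to 18, 14 to 23, 18 to 31, 13 to 33 and 0 to 7, with 14 to 21. Kidney ranged over 73 to 84, 18 to 26, 20 to 25, 56 to 66, 37 to 51 and 11 to 15, with 46 to 55. Liver ranged over 23 to 29, 37 to 45, 20 to 25, 37 to 46, 16 to 27 and 42 to 49, with 10 to 15. Of the named calls, 2828 of 3222 held with 1 array left out, and none reversed under the alternatives run. The liver call of Zfp790 was also lost with the floor at the 10th percentile (0.41, limma adjusted p = 0.0525) and with array weights (0.35, adjusted p = 0.0578). Beyond the settings' own construction, the cause of these moves was not tested.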
